A study of Mus musculus with 36 samples.

Results

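The response of fetal mouse neural stem cells (NSCs) to a heavy dose of ethanol was described from 12 of the 36 RNA-seq libraries of the series. The libraries were chosen by their labels: 6 were NSC cultures kept for 5 days in medium with 320 mg/dL ethanol (70 mM), and 6 were the same cultures kept for 5 days in control medium at 0 mg/dL. The cells came from the dorsal telencephalon, the future isocortex, of C57BL/6J fetuses (genotype WT in the labels, while the study's methods name the mice C57BL/6J (Ai14), a line with a Cre-dependent reporter) at gestational day 12.5, and tissue was pooled by fetal sex within each of 3 pregnancies (sets 3, 4 and 5). Each pregnancy gave 1 female and 1 male culture (3F, 3M, 4F, 4M, 5F and 5M), grown as free-floating neurospheres in serum-free mitogenic medium and used at passages 7 to 10. Medium was replaced on day 3, 4 flasks made up a sample, and the ethanol measured in high-dose medium ranged from 250 to 380 mg/dL. A culture is a pool of littermates of one sex, so the 6 cultures represent 3 pregnancies, and the question put to the data was which genes and pathways of the cells differed between the 320 mg/dL and control samples of the same culture. The other cell libraries (6 at 120 mg/dL) entered the model to share one estimate of the spread, and the extracellular vesicle (EV) libraries of the same cultures were used only for values side by side.

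Neural stem cells of the ventricular zone, the radial glia, divide to renew themselves and give rise to cortical neurons and later to glia. They are kept proliferating in culture by growth factors, and Notch, Wnt, BMP and Hedgehog signals steer them between self-renewal, neurogenesis and gliogenesis. Ethanol is oxidised by alcohol dehydrogenases, catalase and CYP2E1 to acetaldehyde, which aldehyde dehydrogenases clear, and ethanol is known for disturbing redox balance, protein folding in the endoplasmic reticulum (ER) and lipid synthesis in many tissues.

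The labelled cell type was checked against marker genes in CPM, counts scaled to a common library size after TMM. Radial glia genes were abundant: the 10 markers summed to between 3625 and 5538 CPM in control and between 3718 and 4801 CPM at 320 mg/dL, led by Vim and Slc1a3. Sox2, a defining NSC transcription factor, was listed at 0 counts in all 12 libraries, although Nes (mean 366.7 CPM in control), Pax6 (20.3 CPM) and Sox9 (66.1 CPM) were not. Sox2 lies inside the noncoding gene Sox2ot, and the part of the counting of overlapping genes in that 0 was not tested. The 5 choroid plexus markers summed to at most 1.4 CPM, the 7 erythroid markers to at most 0.25 CPM and the 10 microglial markers to at most 7.47 CPM in any of the 12 libraries. Markers of other lineages were present: the 9 oligodendrocyte lineage markers summed to 88 to 240.3 CPM in control and 100.1 to 232.1 CPM at 320 mg/dL, the 5 intermediate progenitor markers to 21.7 to 112.9 and 16.6 to 230.2 CPM, and the 8 meningeal and mesenchymal markers to 16.5 to 47.9 and 13 to 49.4 CPM. Astrocyte markers varied widely between cultures, with sums from 106.5 to 669.6 CPM in control and from 131.9 to 639.1 CPM at 320 mg/dL. In bulk samples, fewer cells of a type and less RNA per cell cannot be told apart.

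Control libraries held 32583966 to 45390848 counts, and libraries at 320 mg/dL held 26566061 to 38893561. The total was lower at 320 mg/dL in 6 of 6 cultures (two-sided exact sign-flip permutation test, p = 0.0312, the smallest that 6 cultures allow; adjusted p = 0.25 over 8 measures of library composition). The number of genes with a count was lower in 5 of 6 cultures. Depth therefore moved with dose, and its part in the results was not tested beyond thinning, which is given with the other alternatives. Library 3F at 320 mg/dL stood apart: tRNA genes took 0.712% of its counts against 0.15 to 0.294% in the other 5 libraries of the group, and its TMM scaling factor, edgeR's correction for library composition, was 0.753 where the other 17 cell libraries lay between 0.879 and 1.28. List medians that it carries, and several genes with a large difference in it, are given without it too.

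**Figure D1:**
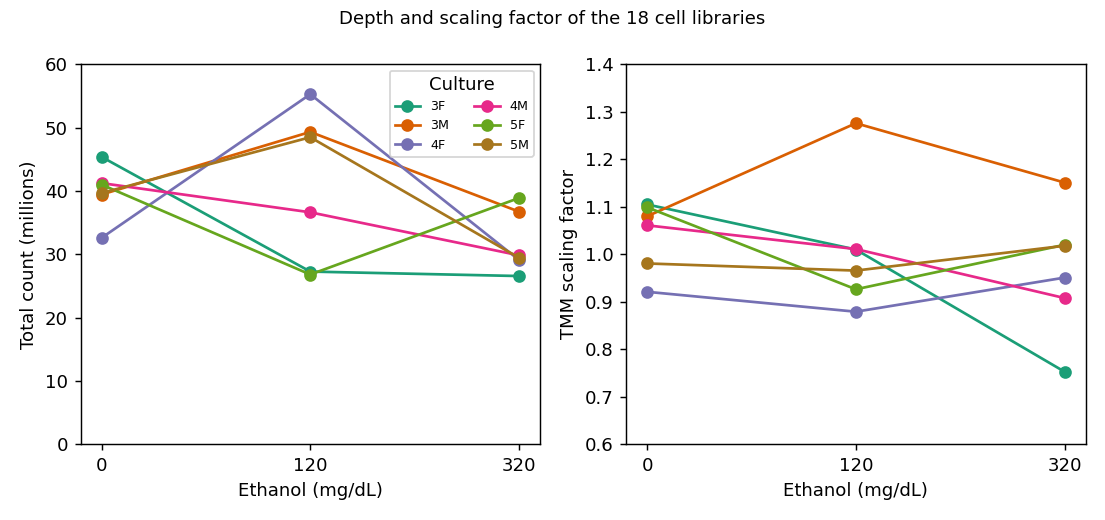
Total count (left, in M counts) and TMM scaling factor (right) of the 18 NSC libraries by ethanol dose in mg/dL, 1 line per culture. Totals at 320 mg/dL were below the control total of the same culture in 6 of 6 cultures, and culture 3F at 320 mg/dL had the lowest factor, 0.753.

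No single gene passed the test for 320 mg/dL against control. Of 18725 genes tested with edgeR's quasi-likelihood test, with culture as a block, 0 had an adjusted p under 0.05 (0%), and the smallest adjusted p was 0.0519. At an unadjusted p under 0.05 there were 1575 genes (8.41%), of which 784 were higher (4.19%) and 791 lower (4.22%) at 320 mg/dL. DESeq2, run with the same terms, called 96 genes at an adjusted p under 0.05 (0.648% of 14804), 62 higher and 34 lower, and all 96 had an unadjusted p of at most 0.00409 in edgeR. Scaling by library totals alone also gave 0, but with 199 higher and 1061 lower genes at an unadjusted p under 0.05 (15.8% higher) and a median log2 difference of -0.11. The 12 libraries fitted without the 120 mg/dL group gave 878 genes at an unadjusted p under 0.05 and a smallest adjusted p of 0.841, and pregnancy and sex terms in place of culture gave 530 and 0.61, so the adjusted p-values below rest on the spread shared with 120 mg/dL and on the culture term. Limma-voom called 7 genes, and edgeR with robust estimation of the spread called 6. Differences were small as a whole: the median log2 difference over all genes was -0.00098, 94.2% of genes lay within 0.5 of 0 and 150 genes beyond 1. The median standard error was 0.14, and 0.09 among the 8898 genes above 10 CPM. Since no gene passed the adjusted threshold in edgeR, every direction below describes a measured value, and calls by DESeq2 are named as such. Among the 18725 genes tested, 303 were higher and 430 lower at 320 mg/dL in 6 of 6 cultures. Genes named below for a small p were picked from these same differences. One sign in 6 of 6 cultures, and a call by DESeq2 on the same counts, therefore follow in part from that choice.

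**Figure D2:**
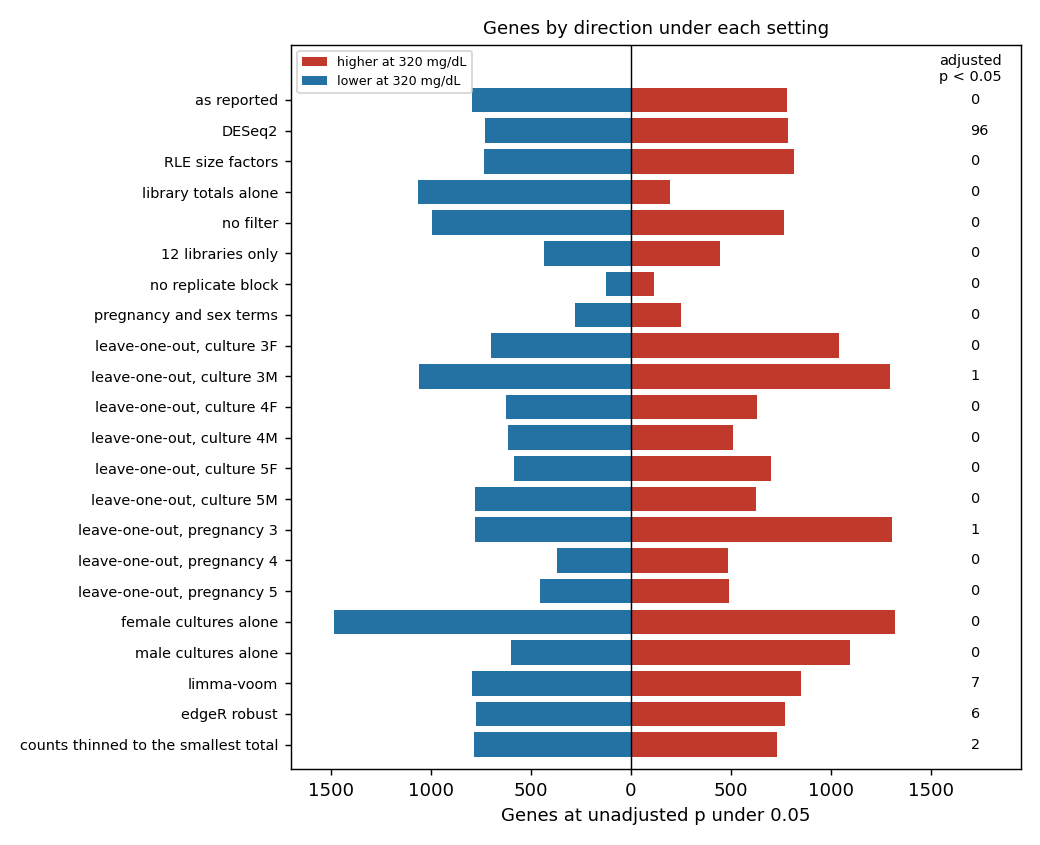
Number of genes at an unadjusted p under 0.05, higher (right, red) and lower (left, blue) at 320 mg/dL, under the reported fit and the alternatives other than the study's kind of criteria, with the number at an adjusted p under 0.05 printed at the right. The reported fit gave 784 higher and 791 lower genes and 0 at the adjusted threshold, and DESeq2 gave 96.

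The genes nearest the threshold, 20 with an adjusted p under 0.1, were chosen after their values were seen, and 13 of them were higher and 7 lower at 320 mg/dL. B3gnt5, which starts the lacto-series of glycosphingolipids, lay at 30.7, 44.7 and 68.9 CPM (lowest, median and highest of the control libraries) and at 47.7, 77.1 and 116 CPM at 320 mg/dL. The groups overlapped in level, but the value was higher in 6 of 6 cultures, and the log2 difference was 0.67 ± 0.09 (SE; edgeR adjusted p = 0.0519). Tm7sf2, a sterol reductase of cholesterol synthesis, lay at 7.52, 11.1 and 23.7 CPM in control and at 9.97, 15.3 and 27 CPM at 320 mg/dL. It was higher in 6 of 6 cultures, by 0.19 to 0.51 on the log2 scale, and the fitted difference was 0.39 ± 0.06 (edgeR adjusted p = 0.0561). Htra1, a secreted serine protease, lay at 19.4, 20.6 and 29.2 CPM in control and at 23.6, 32.2 and 43.7 CPM at 320 mg/dL. The difference was 0.50 ± 0.08 and was positive in 6 of 6 cultures.

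The other higher genes were led by Lingo1, a co-receptor of the Nogo receptor, which lay at 5.99, 12.6 and 18.1 CPM in control and at 7.59, 16.2 and 28.8 CPM at 320 mg/dL, a log2 difference of 0.43 ± 0.07. Nrgn, the postsynaptic calmodulin-binding protein neurogranin, was scarce, with 0.57, 0.88 and 0.93 CPM in control and 0.92, 1.48 and 2.35 CPM at 320 mg/dL. Its difference of 0.92 ± 0.16 was the largest among the 13 higher genes, and only the lowest library at 320 mg/dL reached into the control range. Kcnc4, a voltage-gated potassium channel, differed by 0.83 ± 0.15, and its level at 320 mg/dL was highest in culture 5M, at 5.31 CPM against 1.16 to 2.7 CPM in the others. Atp1b1, the beta subunit of the sodium pump, lay at 24.2, 35.4 and 42.2 CPM in control and at 28.6, 44.7 and 53.5 CPM at 320 mg/dL, a difference of 0.38 ± 0.07. Cd47, the surface protein that restrains phagocytosis, differed by 0.40 ± 0.07 in the same direction. Frzb, a secreted Wnt antagonist, differed by 0.70 ± 0.13 at about 1 CPM, and Rnf128, Arsg, Sntg2 and Eepd1 differed by 0.32 to 0.53. All of the 13 higher genes were higher in 6 of 6 cultures, and DESeq2 called each of them, with adjusted p from 1.08e-06 to 0.0161. Both follow in part from choosing these genes by their small p in the same counts.

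Among the 7 lower genes, Trf, which encodes the iron carrier transferrin, lay at 19.4, 23.6 and 50.9 CPM in control and at 14.7, 15.8 and 30.5 CPM at 320 mg/dL. It was lower in 6 of 6 cultures, with log2 differences of -0.74 to -0.40 within cultures, and the fitted difference was -0.53 ± 0.07 (edgeR adjusted p = 0.0519). Culture 3F was the highest library in both groups. Lpo, a secreted peroxidase, lay at 1.72, 5 and 8.31 CPM in control and at 1.27, 2.46 and 3.18 CPM at 320 mg/dL, a difference of -0.996 ± 0.16. Gpr15, a chemoattractant receptor, differed by -0.71 ± 0.11, P2rx3, an ATP-gated ion channel, by -0.61 ± 0.10, Amy1, an amylase, by -0.72 ± 0.12 and Col5a3, a fibrillar collagen chain, by -0.49 ± 0.09. Each of these 6 genes was lower in 6 of 6 cultures and was called by DESeq2. The remaining gene, Afp, the fetal plasma protein alpha-fetoprotein, had the largest fitted difference, -3.38 ± 0.57, but lay between 0.03 and 1.54 CPM in control and between 0 and 0.1 CPM at 320 mg/dL. It was lower in 5 of 6 cultures, its difference came mainly from cultures 3F, 3M and 4M, and DESeq2 gave it no adjusted p.

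**Figure D3:**
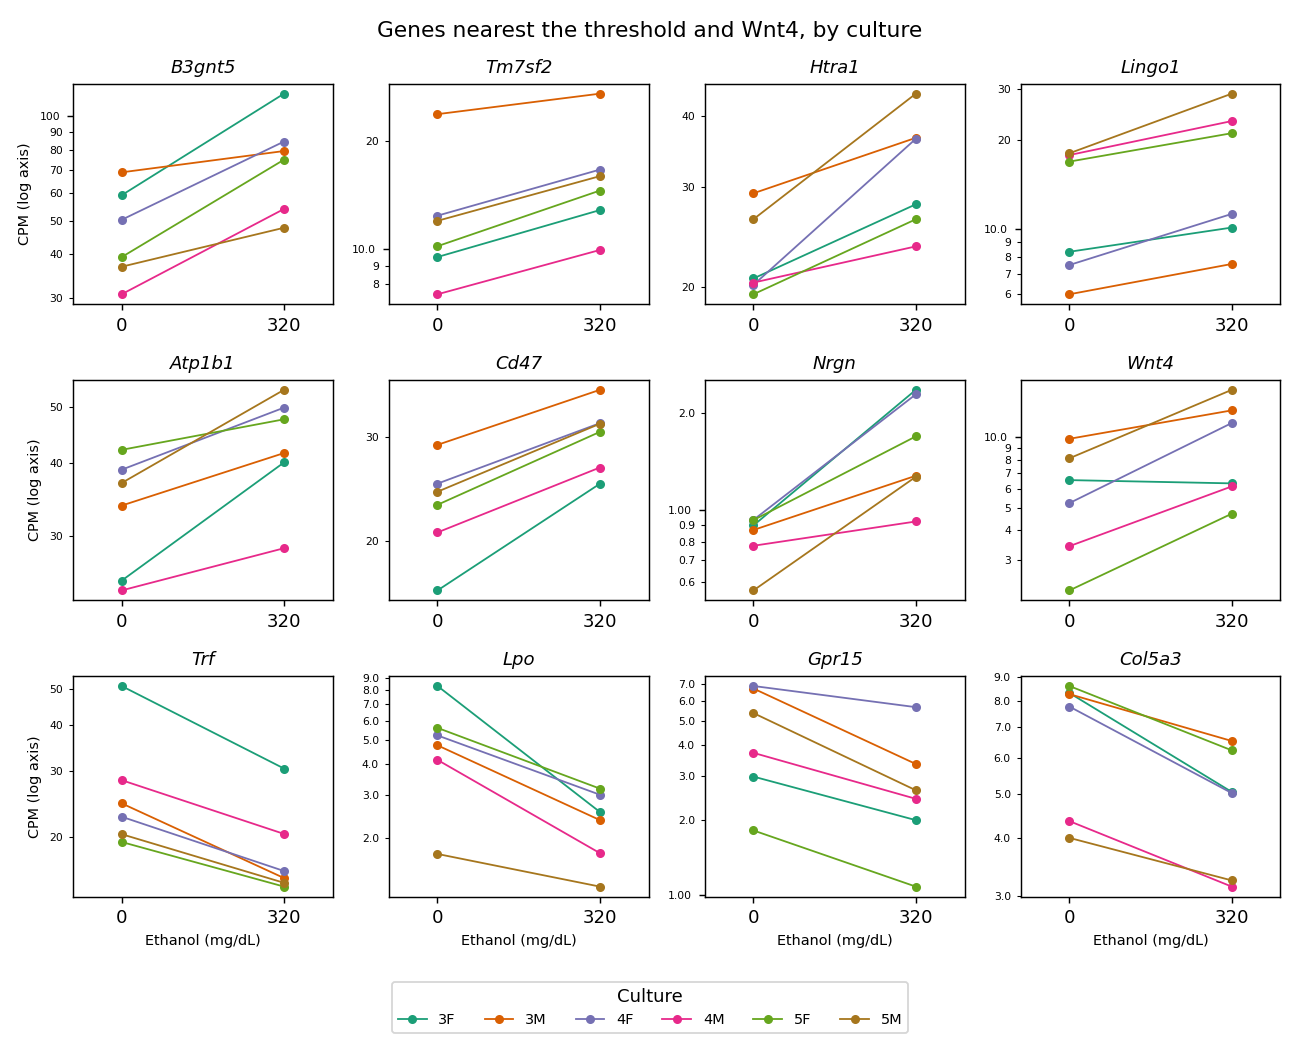
CPM (log axis) in control (0) and at 320 mg/dL ethanol, 1 line per culture, for 11 of the genes nearest the threshold and Wnt4. The lines slope the same way in 6 of 6 cultures for the 11 genes, and in 5 of 6 for Wnt4, while the levels of the groups overlap for each gene shown.

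In the GRCm39 assembly, the same build as the mm39 genome the reads were mapped to, GENCODE places Trf at chr9:103081200-103107814, B3gnt5 at chr16:19578948-19591507, Tm7sf2 at chr19:6112851-6118403 and Lpo at chr11:87697253-87719369, all protein-coding. Exons of Tm7sf2 overlap Vps51 on the same strand, and exons of Amy1 overlap Rnpc3 on the same strand and Amy1 belongs to a family of near-identical amylase genes, so both counts are uncertain. Gpr15 overlaps Cpox and P2rx3 overlaps Ssrp1 on the opposite strand, and whether strand was used in counting is not given in the sources used here. B3gnt5, Htra1, Lpo, Col5a3 and Eepd1 overlap no other annotated exon.

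Pathways were described with 48 gene lists. The lists were written from textbook knowledge but with earlier results of these data known, so their shares are descriptions and not independent evidence. Each is given by the number of members at an unadjusted p under 0.05 in each direction and the median log2 difference. These stand beside 4.19% higher, 4.22% lower and a median of -0.00098 over all genes tested. No member of any list had an adjusted p under 0.05 in edgeR. The lists with the largest negative medians were interferon response, ER unfolded protein response, p53 targets, ribosome biogenesis and splicing factors. Those with the largest positive medians among lists of at least 8 tested genes were replication-dependent histones, tRNA genes, mitochondrially encoded mRNAs, hypoxia response and BMP and Id genes. Hypoxia response had only 1 of 25 members higher (4%), culture medians from -0.67 in 3M to 0.55 in 3F, and a median of -0.0075 without culture 3F. Scaling by library totals alone moved the median over all genes to -0.11. Under it the medians of 18 of the 26 lists above 0 fell below 0, BMP and Id (-0.0047) and neuronal differentiation (-0.05) among them. These 2 lists stayed above the median of all genes, so their crossing of 0 goes with the shift of all genes. Cultures agreed to very different degrees: the medians for splicing factors and the ER list were below 0 in 6 of 6 cultures, while that for tRNA genes ran from -0.71 in culture 5M to 2.21 in culture 3F.

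**Figure D4:**
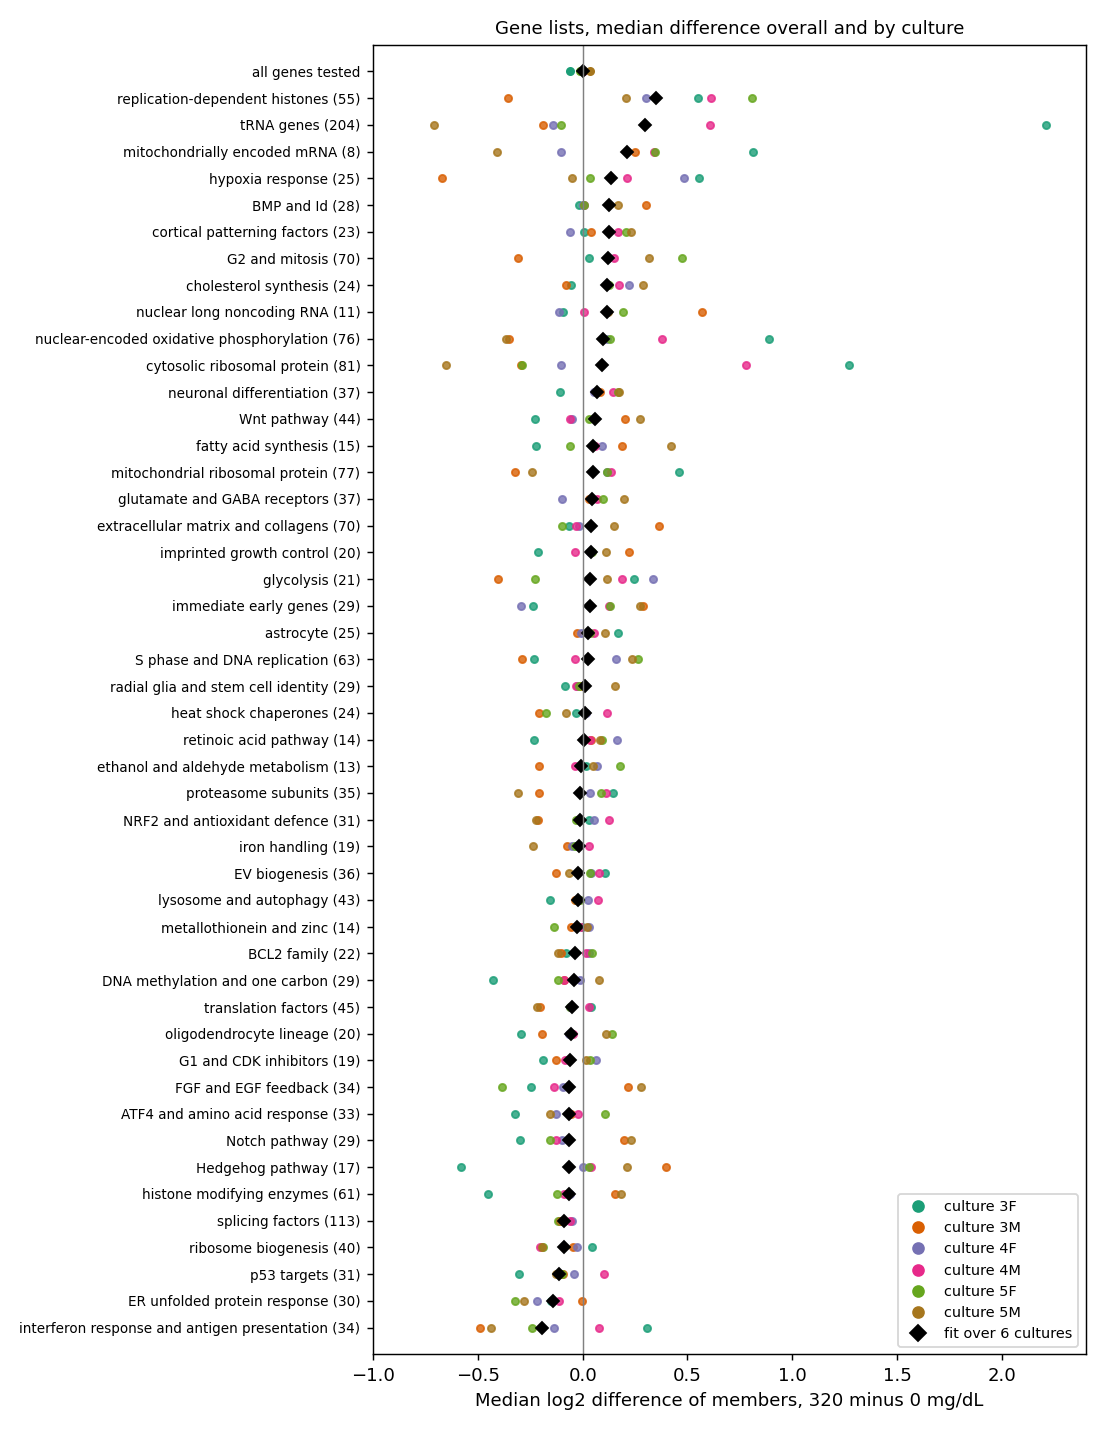
Median log2 difference (320 minus 0 mg/dL) of the tested members of 47 gene lists of at least 8 tested genes and of all genes tested, with the number tested in parentheses. Black diamonds show the fit over 6 cultures and coloured points the median within each culture, which for splicing factors lay between -0.12 and -0.05 and for tRNA genes between -0.71 and 2.21.

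Genes of the ER unfolded protein response, the chaperones, folding enzymes and degradation factors induced when unfolded proteins gather in the ER, were lower as a group. Of 30 members, all tested, 9 were lower (30%) and 0 higher at an unadjusted p under 0.05, 27 had a negative difference, and the median was -0.14. The median within a culture ran from -0.32 to -0.0049, and the median was -0.06 without pregnancy 5 and -0.20 without pregnancy 3. Hspa5, the ER chaperone BiP, lay at 55.5, 126 and 196.4 CPM in control and at 29, 88.5 and 167.2 CPM at 320 mg/dL, a difference of -0.39 ± 0.15 (chosen after its value was seen). It was lower in 6 of 6 cultures, with wide overlap of the groups, and the difference was -0.14 without pregnancy 5. Hyou1, an ER chaperone of the Hsp110 type, lay at 66.1, 113.4 and 197.5 CPM in control and at 49.4, 96.3 and 133 CPM at 320 mg/dL, a difference of -0.37 ± 0.11. Without culture 3F the difference of Hyou1 was -0.28. Dnajb11, a BiP cochaperone, differed by -0.29 ± 0.08 and Edem1, which hands misfolded glycoproteins to degradation, by -0.23 ± 0.07, both lower in 6 of 6 cultures. DESeq2 called no member of the list.

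**Figure D5:**
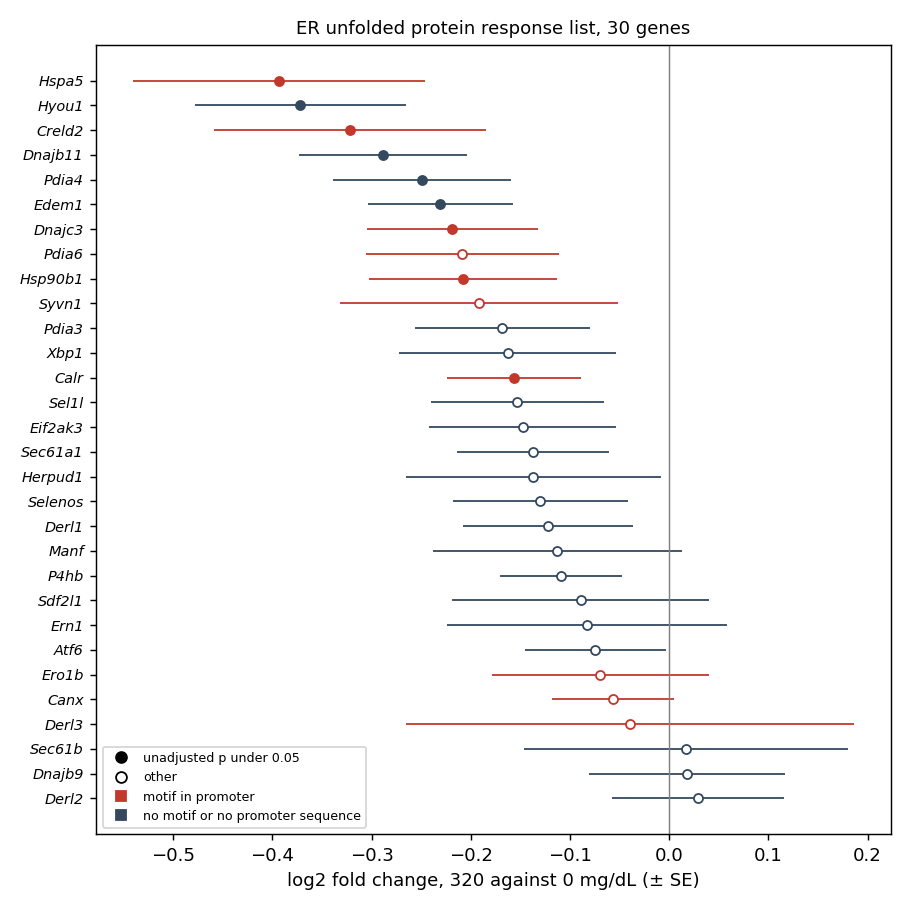
log2 difference (320 against 0 mg/dL, ± SE) of the 30 genes of the ER unfolded protein response list. Filled points have an unadjusted p under 0.05 (9 genes, all lower), and red marks the 10 genes whose promoter sequence holds the ER stress response element.

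The promoters of this list are shown because 10 of its genes share a known regulatory element, the ER stress response element, searched as CCAAT, 9 bases of any kind and CCACG on both strands of the RefSeq promoter sequences (GRCm38.p6, 250 bases before to 50 after each start). Promoter sequences were found for 25 of the 30 genes and 10 of them held the element, against 37 of 27025 genes in all (0.137%). The element and the list both belong to the same known response, so this share is not a test. In the sequences below, on the gene's own strand, capitals mark the 19 bases matched, which read as the reverse complement in Calr, Creld2, Derl3 and Ero1b.
Hspa5 (chr2:34772010-34772058, + strand): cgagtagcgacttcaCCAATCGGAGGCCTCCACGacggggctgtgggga
Hsp90b1 (chr10:86705623-86705671, - strand): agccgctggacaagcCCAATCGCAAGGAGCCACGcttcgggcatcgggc
Dnajc3 (chr14:118937812-118937860, + strand): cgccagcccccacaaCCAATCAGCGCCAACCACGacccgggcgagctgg
Pdia6 (chr12:17266476-17266524, + strand): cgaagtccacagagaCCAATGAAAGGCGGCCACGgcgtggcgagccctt
Syvn1 (chr19:6046517-6046565, + strand): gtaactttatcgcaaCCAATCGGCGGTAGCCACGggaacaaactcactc
Canx (chr11:50325785-50325833, - strand): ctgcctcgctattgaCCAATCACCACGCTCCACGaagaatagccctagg
Calr (chr8:84847060-84847108, - strand): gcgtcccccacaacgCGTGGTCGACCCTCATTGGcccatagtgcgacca
Creld2 (chr15:88819505-88819553, + strand): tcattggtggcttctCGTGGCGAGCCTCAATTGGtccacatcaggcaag
Derl3 (chr10:75893227-75893275, + strand): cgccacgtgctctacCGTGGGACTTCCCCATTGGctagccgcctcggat
Ero1b (chr13:12565667-12565715, + strand): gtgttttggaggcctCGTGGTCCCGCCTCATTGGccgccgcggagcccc
The first base of the element lay 65 bases before the start site in Hspa5 and 44 in Syvn1, and Hsp90b1 held a second match. All 10 genes had a negative difference, from -0.39 in Hspa5 to -0.04 in Derl3, with a median of -0.20, and 5 were lower at an unadjusted p under 0.05. Among the 15 tested genes with a promoter sequence and no match, 12 had a negative difference, the median was -0.14 and 3 were lower at that threshold.

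Splicing factors gave the narrowest spread between cultures. Of 113 tested members, 22 were lower (19.5%) and 0 higher at an unadjusted p under 0.05, 94 had a negative difference, and the median was -0.09 overall and between -0.12 and -0.05 within each culture. Srsf6, an SR protein that guides exon choice, lay at 133.6, 180.3 and 203.8 CPM in control and at 115.8, 148.5 and 190.3 CPM at 320 mg/dL. The difference was small but was seen in 6 of 6 cultures, -0.20 ± 0.05, and DESeq2 called it (adjusted p = 0.000737). The RNA helicase Ddx46 differed by -0.19 ± 0.05 and Prpf3, a part of the U4/U6 snRNP, by -0.22 ± 0.07.

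Ribosome biogenesis genes had 9 of 40 members lower (22.5%) and 0 higher at an unadjusted p under 0.05, with a median of -0.09 that was -0.05 without pregnancy 5. Nolc1, a nucleolar chaperone of snoRNPs, lay at 35.8, 72.7 and 122.2 CPM in control and at 29.7, 67.8 and 112 CPM at 320 mg/dL, a difference of -0.18 ± 0.05. The helicase Ddx21 differed by -0.20 ± 0.06 and the rRNA methyltransferase Nop2 by -0.24 ± 0.08, and the 3 genes were lower in 6 of 6 cultures. Translation factors had 7 of 45 members lower (15.6%), with a median of -0.05, and the 3 with the smallest p were subunits of eIF3: Eif3b at -0.23 ± 0.07, Eif3d at -0.20 ± 0.07 and Eif3c at -0.20 ± 0.07. Each was lower in 5 of 6 cultures.

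Ribosomal protein, oxidative phosphorylation and tRNA genes varied more between cultures. None of the 81 tested cytosolic ribosomal protein genes had an unadjusted p under 0.05. Their median was 0.09 over the 6 cultures but ran from -0.65 in culture 5M to 1.27 in culture 3F, and it was -0.10 without culture 3F. Nuclear-encoded subunits of oxidative phosphorylation likewise had 0 of 76 at that threshold, with a median of 0.09 that was -0.04 without culture 3F. For tRNA genes, 3 of 204 were higher (1.47%), and the median of 0.30 was -0.11 without culture 3F. Mitochondrially encoded mRNAs kept a positive median without it (0.21 with and 0.13 without), with 2 of 8 higher. Library 3F at 320 mg/dL is the one whose tRNA share and scaling factor stood apart, and the part of library composition in these medians was not tested.

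Targets of p53, the transcription factor that halts the cycle or triggers death after damage, had 4 of 31 members lower (12.9%) and 0 higher at an unadjusted p under 0.05, with a median of -0.11, and 27 had a negative difference. Cdkn1a, which encodes the cyclin-dependent kinase inhibitor p21, lay at 28.5, 64.1 and 83.1 CPM in control and at 26.1, 53.9 and 68 CPM at 320 mg/dL. It was lower in 6 of 6 cultures, by a fitted -0.28 ± 0.07, and DESeq2 called it (adjusted p = 0.04). Aen, an apoptosis-enhancing nuclease, differed by -0.37 ± 0.11 and Trp53 itself by -0.16 ± 0.05, both lower in 6 of 6 cultures. Without culture 3F the difference of Aen was -0.27. Of the BCL2 family of death regulators, 1 of 22 members was higher and 0 lower at that threshold.

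Antioxidant genes of the NRF2 pathway had 5 of 31 members lower (16.1%) and 0 higher, although their median was only -0.01. Pgd, which makes NADPH in the pentose phosphate pathway, lay at 15, 23.9 and 37.4 CPM in control and at 11.3, 22 and 30 CPM at 320 mg/dL, a difference of -0.27 ± 0.06 that DESeq2 called (adjusted p = 0.0398). Nqo1, a quinone reductase, differed by -0.37 ± 0.11 at about 3 CPM, and Gclm, the modifier subunit of the enzyme that starts glutathione synthesis, by -0.23 ± 0.08. Hmox1, which degrades haem, differed by -0.41 ± 0.18 and was lower in 5 of 6 cultures (chosen after its value was seen). The metallothioneins, small zinc-binding proteins, lay the other way: Mt2 differed by 0.68 ± 0.26 and Mt1 by 0.48 ± 0.18, higher in 5 and 4 of 6 cultures. Culture 3F carried much of both, with 2.46 for Mt2 and 1.74 for Mt1, and without it the differences were 0.33 and 0.23. In the metallothionein and zinc list as a whole, 2 of 14 were higher and 2 lower.

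In the ATF4 and amino acid response list, 2 of 33 members were lower (6.06%) and 0 higher. Slc7a3, a transporter of arginine and lysine, lay at 2.02, 7.24 and 19 CPM in control and at 1.11, 5.11 and 13.6 CPM at 320 mg/dL, a difference of -0.57 ± 0.11 seen in 6 of 6 cultures and called by DESeq2 (adjusted p = 0.00698). In the one-carbon and DNA methylation list, 3 of 29 were lower (10.3%): Cbs, which drains homocysteine into cysteine synthesis, at -0.31 ± 0.08, and the methyl-CpG binding proteins Mbd3 at -0.34 ± 0.12 and Mbd1 at -0.14 ± 0.06. DESeq2 called Cbs (adjusted p = 0.0399). Heat shock chaperones had 2 of 24 members higher and 4 lower.

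Lipid synthesis genes were described in 2 lists. Of 24 tested cholesterol synthesis genes, 7 were higher (29.2%) and 0 lower at an unadjusted p under 0.05, 19 had a positive difference, and the median was 0.12, positive in 4 of 6 cultures and between 0.08 and 0.23 with a culture or pregnancy left out. Besides Tm7sf2, the list was led by Cyp51, the sterol demethylase, at 100, 150.4 and 333.1 CPM in control and at 108.9, 180.2 and 323.5 CPM at 320 mg/dL, a difference of 0.22 ± 0.07. Fdps, which makes farnesyl diphosphate, differed by 0.37 ± 0.13, and both genes were higher in 5 of 6 cultures. Of 15 fatty acid synthesis genes, 4 were higher (26.7%) and 0 lower. Their median of 0.05 was -0.22 within culture 3F, 0.0079 without culture 5M and -0.02 in female cultures alone. Scd1, the stearoyl-CoA desaturase, lay at 47, 88.4 and 146.9 CPM in control and at 55.8, 116.9 and 179.7 CPM at 320 mg/dL, a difference of 0.39 ± 0.10 seen in 6 of 6 cultures. The desaturase Fads2 differed by 0.26 ± 0.07 and Acss2, which activates acetate to acetyl-CoA, by 0.40 ± 0.13 (0.28 without culture 3F). Scaling by library totals alone took the median of all genes to -0.11 and those of the lists to 0.01 and -0.06, so both stayed above the median of all genes.

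Among the enzymes that oxidise ethanol and aldehydes, Cat was the one with an unadjusted p under 0.05. Of 17 members of this list found in the files, 13 passed the filter on low counts, 1 was lower (7.69%) and 0 higher at an unadjusted p under 0.05, and the median was -0.0062. Cat, catalase, lay at 55.8, 68.6 and 110.2 CPM in control and at 46.5, 64.8 and 94.4 CPM at 320 mg/dL. It was lower in 6 of 6 cultures, with a difference of -0.18 ± 0.06 and a 95% interval of -0.31 to -0.05. Aldh2, the mitochondrial enzyme that clears acetaldehyde, lay at 13.1, 14.9 and 17.4 CPM in control and at 11.3, 15.6 and 20.8 CPM at 320 mg/dL. Its 95% interval, -0.10 to 0.21, spanned 0, as did that of Adh5, an alcohol dehydrogenase of broad tissue range, -0.20 to 0.25. Aldh9a1 had the widest interval, -1.54 to 1.66: it lay at 648 CPM in the control library of 3F and 20.7 to 56.1 CPM in the other control libraries, and at 475.2 CPM in 5F and 21.7 to 101.5 CPM in the others at 320 mg/dL. Its difference was 0.81 without culture 3F and -0.69 without culture 5F. The intervals of Aldh3a2, Aldh7a1 and Akr1a1 stayed within 0.23 of 0. Differences over the 13 tested members ran from -0.26 to 0.33, and not all 13 are named.

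Cell cycle genes were grouped by phase. Of 70 genes of G2 and mitosis, 10 were higher (14.3%) and 0 lower at an unadjusted p under 0.05, and 62 had a positive difference, with a median of 0.12. The 3 with the smallest p were Kif15, a spindle kinesin, at 0.25 ± 0.08, Knl1, a kinetochore scaffold, at 0.29 ± 0.10 and Cenpe, a kinetochore motor, at 0.23 ± 0.09. The exception in each was culture 3M, whose control library was the highest of its group: Knl1 lay at 96.2 CPM there against 35.4 to 44.5 CPM in the other control libraries, and at 41.4, 53.9 and 81.6 CPM at 320 mg/dL. The median of the list was 0.23 without culture 3M but -0.0085 without pregnancy 5, and without pregnancy 5 Kif15 differed by 0.12, Knl1 by 0.15 and Cenpe by 0.08. None of the 63 genes of S phase and DNA replication reached that threshold (median 0.02), while among G1 genes and kinase inhibitors 4 of 19 were lower (21.1%) and 0 higher.

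Replication-dependent histones, which are made in S phase and whose mRNAs lack a poly(A) tail, had the largest share of members at an unadjusted p under 0.05. Of 55 tested, 20 were higher (36.4%) and 2 lower, 52 had a positive difference, and the median was 0.35, positive in 5 of 6 cultures. H4c1 lay at 9.39, 27.3 and 109.2 CPM in control and at 17.9, 52.5 and 91.2 CPM at 320 mg/dL, a difference of 0.51 ± 0.17. H2bc12 differed by 0.54 ± 0.18 and H2ac11 by 0.63 ± 0.22. Without culture 3F the differences were 0.36 for H4c1, 0.35 for H2bc12 and 0.53 for H2ac11. In male cultures alone they were 0.14, 0.19 and 0.30. The median was -0.36 in culture 3M and 0.81 in culture 5F, 0.52 without culture 3M, 0.22 without pregnancy 5 and 0.11 in male cultures alone. Genes of this family are near-identical copies in clusters, so their counts are uncertain and their members are not independent of each other.

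Stem cell identity genes had a median close to that of all genes: of 29 tested, 4 were higher (13.8%) and 0 lower at an unadjusted p under 0.05, with a median of 0.01. Slc1a3, the glutamate transporter GLAST of radial glia, lay at 719.7, 1149 and 1398 CPM in control and at 874.3, 1207 and 1598 CPM at 320 mg/dL. It was higher in 6 of 6 cultures, by a fitted 0.16 ± 0.06. Mfge8, a secreted phosphatidylserine-binding protein, differed by 0.23 ± 0.08 and Hes5, a Notch effector, by 0.35 ± 0.14. The intermediate filament gene Nes had a difference of -0.24 ± 0.12, with a 95% interval of -0.50 to 0.02, and Pax6 one of 0.12 ± 0.10, with an interval of -0.08 to 0.33. In the list of cortical patterning factors, 1 of 23 was higher, Nr2f1 (COUP-TFI), at 0.28 ± 0.07 and called by DESeq2 (adjusted p = 0.0431).

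Among neuronal differentiation genes, 4 of 37 were higher (10.8%) and 1 lower, with a median of 0.07 that was positive in 5 of 6 cultures. Myt1l, a transcription factor that represses non-neuronal genes, lay at 1.75, 2.03 and 3.82 CPM in control and at 2.08, 2.41 and 4.54 CPM at 320 mg/dL, a difference of 0.31 ± 0.09. The neuronal RNA-binding proteins Elavl2 and Elavl3 differed by 0.20 ± 0.06 and 0.22 ± 0.08. Of 37 glutamate and GABA receptor genes, 5 were higher (13.5%) and 0 lower. Gabbr1, a subunit of the GABA-B receptor, lay at 66.4, 119.6 and 167.1 CPM in control and at 119.2, 158.8 and 281.4 CPM at 320 mg/dL. It was higher in 6 of 6 cultures, by a fitted 0.51 ± 0.11, and DESeq2 called it (adjusted p = 0.0069). Grik1 differed by 0.36 ± 0.13 and Grin2d by 0.56 ± 0.22. Grin2d was higher in 4 of 6 cultures, by 1.66 in culture 5M. Its difference was 0.30 without culture 5M and 0.04 in female cultures alone. Shank1, a postsynaptic scaffold, and Dnm1, the dynamin of synaptic vesicle recycling, were also among the DESeq2 calls, at 0.93 ± 0.21 and 0.64 ± 0.14 in edgeR (chosen after their values were seen). The 11 neuron markers summed to 617.9 to 1204 CPM in control and 601 to 1170 CPM at 320 mg/dL, higher in 3 of 6 cultures.

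The astrocyte list had 6 of 25 members higher (24%) and 1 lower, with a median of 0.03. Agt, angiotensinogen, lay at 3.53, 22.1 and 85.2 CPM in control and at 9, 39.2 and 133.8 CPM at 320 mg/dL. It was higher in 6 of 6 cultures, by a fitted 0.69 ± 0.14, and DESeq2 called it (adjusted p = 0.00249). Gja1, connexin 43, differed by 0.29 ± 0.09 and Cpe, carboxypeptidase E, by 0.19 ± 0.07. The 6 defining astrocyte markers, in contrast, summed to a higher value in only 1 of 6 cultures, and 0 of the 5 tested had an unadjusted p under 0.05. The oligodendrocyte list had 1 of 20 members higher and 2 lower. The lower members were Bcas1 at -0.41 ± 0.11 and Olig1 at -0.28 ± 0.10, each higher in only 1 of 6 cultures. Olig1, which is not among the 9 oligodendrocyte lineage markers summed above, had a mean of 392.3 CPM in control and 307 CPM at 320 mg/dL. The higher member was Ugt8a, at 0.35 ± 0.15 and about 1 CPM.

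Signalling pathways that steer NSCs differed in single members. In the Wnt list, 4 of 44 were higher (9.09%) and 1 lower. Wnt4, a secreted ligand, lay at 2.22, 5.9 and 9.84 CPM in control and at 4.72, 8.92 and 15.9 CPM at 320 mg/dL, and it was higher in 5 of 6 cultures, by a fitted 0.73 ± 0.14. DESeq2 called it (adjusted p = 0.000737), and edgeR called it when pregnancy 3 was left out (1.01, adjusted p = 0.0456). The Wnt antagonists Sfrp2 and Apcdd1 differed by 0.49 ± 0.16 and 0.26 ± 0.09. Of 28 BMP and Id genes, 5 were higher (17.9%) and 0 lower, with a median of 0.13. Within cultures the median was 0.30 in 3M and 0.17 in 5M, and between -0.016 and 0.0078 in the other cultures. It was 0.0088 in female cultures alone. Id2, a target of BMP signalling that blocks bHLH factors, lay at 25.4, 42.6 and 143 CPM in control. At 320 mg/dL it lay at 27.8, 55.7 and 186.1 CPM, a difference of 0.44 ± 0.17. The inhibitory Smad6 differed by 0.76 ± 0.28, but its highest value, 10.8 CPM, came from culture 3F at 320 mg/dL, where the other 5 libraries lay between 1.67 and 3.45 CPM, and the difference was 0.39 without that culture. Smad9 differed by 0.44 ± 0.18. In the FGF and EGF feedback list, 2 of 34 were lower and 2 higher (5.88% each). Spry1 lay at -0.33 ± 0.10 and Dusp6 at -0.28 ± 0.10, while the immediate early gene Egr1 lay at 0.30 ± 0.11. In the Notch and Hedgehog lists, 1 of 29 and 2 of 17 members were higher and 0 lower.

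Extracellular matrix genes lay in both directions, 10 of 70 higher (14.3%) and 4 lower (5.71%), and DESeq2 called 3 of them. Nid1, a basement membrane linker, lay at 1.98, 7.64 and 24.4 CPM in control and at 2.67, 10.2 and 35.8 CPM at 320 mg/dL, a difference of 0.48 ± 0.10 seen in 6 of 6 cultures. Col9a3, a cartilage-type collagen chain, differed by -0.36 ± 0.08, lower in 6 of 6 cultures, as was Col5a3 above. Interferon response genes had 6 of 34 members lower (17.6%) and 0 higher, with the lowest median of any list, -0.19. The interferon regulatory factor Irf9 differed by -0.29 ± 0.09, the deISGylase Usp18 by -0.68 ± 0.23 at under 1 CPM and the guanylate-binding protein Gbp7 by -0.26 ± 0.10. The median within a culture was below 0 in 4 of 6 cultures and ran from -0.49 to 0.31.

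Imprinted genes of growth control had 3 of 20 members higher (15%) and 1 lower. Mest, expressed from the paternal allele in embryonic tissue, differed by -0.27 ± 0.07 and was lower in 6 of 6 cultures. Peg3 and its neighbour Usp29 differed by 0.27 ± 0.08 and 0.40 ± 0.13, both higher in 5 of 6. Because these cells secrete the vesicles that the series also measured, genes of EV biogenesis were listed too: 2 of 36 were higher and 1 lower. Flot1, a lipid raft protein used as a vesicle marker, differed by -0.24 ± 0.06 in 6 of 6 cultures, and Pld2 and the secretory GTPase Rab27b by 0.28 ± 0.09 and 0.38 ± 0.14.

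At 120 mg/dL, the same model called 0 of 18725 genes (0%) in cells, with 477 at an unadjusted p under 0.05. That contrast uses the same control libraries as 320 mg/dL, so the values are only set side by side. B3gnt5 differed from control by 0.37 ± 0.09 at 120 mg/dL and by 0.67 ± 0.09 at 320 mg/dL, Trf by -0.32 ± 0.07 and -0.53 ± 0.07, and Lpo by -0.50 ± 0.15 and -0.996 ± 0.16. Htra1 differed by 0.10 ± 0.08 and 0.50 ± 0.08, and Tm7sf2 by 0.11 ± 0.06 and 0.39 ± 0.06. The ER list had medians of -0.10 and -0.14, splicing factors -0.05 and -0.09, and cholesterol synthesis 0.09 and 0.12.

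In the EVs of the same cultures, the same edgeR model called 10 of 13193 genes at 320 mg/dL against control (smallest adjusted p 0.0424). At an unadjusted p under 0.05 there were 1427. Trf, Lingo1, Gabbr1, Htra1 and Col5a3 were not among the called genes. The genes named for the cells had few counts in EVs, and their values had wide errors. Trf, with at most 75 counts in a vesicle library, differed by -0.55 ± 0.20, Lingo1 (at most 56 counts) by 0.80 ± 0.26 and Gabbr1 (at most 176 counts) by 0.56 ± 0.14. Htra1 differed by 0.71 ± 0.34 with at most 19 counts, and Col5a3, at -0.49 ± 0.09 in cells, differed by 0.43 ± 0.31 in EVs. Splicing factors had a median of 0.19 over 112 genes in EVs beside -0.09 in cells, and the ER list -0.0035 over 26 genes beside -0.14. No median over all genes tested in EVs is given beside these. Other lists lay on either side of 0 in EVs, such as proteasome subunits at 0.15 and S phase and DNA replication at -0.11. The difference between cells and EVs was not tested.

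Whether female and male cultures responded differently was tested with a sex by 320 mg/dL term. In edgeR, 0 of 19238 genes had an adjusted p under 0.05 (0%; smallest 0.224) and 3393 had an unadjusted p under 0.05, while DESeq2 called 60 of 10152 (0.591%). The genes with the smallest p in each direction are given as values. Hspg2, the basement membrane proteoglycan perlecan, went from a mean of 5.67 to 10.5 CPM in male cultures and from 7.8 to 6.28 CPM in female cultures, a male minus female difference of 1.16 ± 0.23. Mir22hg, the host gene of a microRNA, went from 31.1 to 34.1 CPM in males and from 15.7 to 10.8 CPM in females, a difference of 0.72 ± 0.14, and Tinag, a basement membrane protein, differed by 2.47 ± 0.47 at about 1 CPM or less. In the other direction, Zfp759 went from 4.92 to 9.81 CPM in females and from 5.74 to 4.89 CPM in males, a difference of -1.10 ± 0.22. Zfp763, another zinc finger gene, differed by -0.78 ± 0.16 and the nucleotidase Nt5c1a by -2.90 ± 0.48 at 0.24 to 1.51 CPM.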

How the data were processed

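The authors trimmed and deduplicated the reads with SeqSense and Trimmomatic, mapped them to mm39 with STAR and deposited HTSeq gene counts, 1 file per library, with no unassigned reads listed. RNA was depleted of ribosomal RNA and prepared with a stranded kit. The deposited counts of the 18 cell libraries (40205 genes) were filtered with filterByExpr (minimum count 10, minimum total 15), scaled by TMM and fitted with edgeR 4.0.16 in R 4.3.3 (quasi-likelihood test) with terms for culture and dose, and p-values were adjusted by Benjamini-Hochberg over all genes tested. DESeq2 1.42.0 and limma 3.58.1 were alternatives. CPM are TMM-scaled, and differences within a culture use log2 CPM with a prior count of 1. The pairing comes from the cultures themselves: deviations of the control and 320 mg/dL libraries of a culture correlated at 0.399 to 0.626. Members and gene lists were chosen with earlier results of these data known. Genes were to be named by 4 rules: called genes with one sign in 6 cultures (there were none), the 3 smallest p in each list, all markers and ethanol enzymes, and the 3 smallest p in each direction for sex. Not every gene that met a rule is described: Stip1, Hspa9 and Aldh1b1, for example, had one of the 3 smallest p of their lists. Genes outside these rules are marked as chosen after their values were seen. One marker gene is not reported here by name. P-values of the edgeR fit measure the spread left within cultures over the 3 doses, after the culture term, in 6 cultures of 3 pregnancies.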

Additional observations from a re-analysis of the deposited data

Results flagged for a closer look

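In each of the following groups of 6 libraries, 1 library lay farther from the others than Dixon's 95% critical value allows. This was the case in 25 of 234 groups examined, where chance gives about 1 in 20 groups. Trf lay at 50.9 CPM in culture 3F at 0 mg/dL, where the others lay between 19.4 and 28.4 CPM. Trf lay at 30.5 CPM in culture 3F at 320 mg/dL, where the others lay between 14.7 and 20.3 CPM. Tm7sf2 lay at 23.7 CPM in culture 3M at 0 mg/dL, where the others lay between 7.52 and 12.4 CPM. Kcnc4 lay at 5.3 CPM in culture 5M at 320 mg/dL, where the others lay between 1.16 and 2.7 CPM. Gja1 lay at 297 CPM in culture 5M at 0 mg/dL, where the others lay between 54.1 and 136 CPM. Smad6 lay at 10.8 CPM in culture 3F at 320 mg/dL, where the others lay between 1.67 and 3.45 CPM. Id2 lay at 143 CPM in culture 3M at 0 mg/dL, where the others lay between 25.4 and 59.4 CPM. Pld2 lay at 17.4 CPM in culture 5M at 320 mg/dL, where the others lay between 4.7 and 8.45 CPM. Dusp6 lay at 183 CPM in culture 3M at 320 mg/dL, where the others lay between 91.6 and 126 CPM. Egr1 lay at 295 CPM in culture 5F at 0 mg/dL, where the others lay between 69 and 113 CPM. Egr1 lay at 402 CPM in culture 5F at 320 mg/dL, where the others lay between 63.7 and 184 CPM. Knl1 lay at 96.2 CPM in culture 3M at 0 mg/dL, where the others lay between 35.4 and 44.5 CPM. Cenpe lay at 124 CPM in culture 3M at 0 mg/dL, where the others lay between 46.7 and 63 CPM. Mt1 lay at 188 CPM in culture 4M at 320 mg/dL, where the others lay between 262 and 304 CPM. Myt1l lay at 3.82 CPM in culture 5F at 0 mg/dL, where the others lay between 1.75 and 2.3 CPM. Nqo1 lay at 2.82 CPM in culture 4F at 320 mg/dL, where the others lay between 2.09 and 2.34 CPM. Aen lay at 74 CPM in culture 3F at 0 mg/dL, where the others lay between 37.4 and 49.4 CPM. Shank1 lay at 7.05 CPM in culture 3F at 320 mg/dL, where the others lay between 1.84 and 3.58 CPM. Aldh9a1 lay at 648 CPM in culture 3F at 0 mg/dL, where the others lay between 20.7 and 56.1 CPM. At 320 mg/dL it lay at 475.2 CPM in culture 5F, where the others lay between 21.7 and 101.5 CPM. Mir22hg lay at 56.7 CPM in culture 5M at 0 mg/dL, where the others lay between 10.5 and 26.1 CPM. In culture 3F at 320 mg/dL, tRNA genes took 0.712% of counts, against 0.15 to 0.294% in the others. In culture 4F at 0 mg/dL, snoRNA genes took 0.195% of counts, against 0.146 to 0.163% in the others. In culture 3F at 320 mg/dL, snoRNA genes took 0.6003% of counts, against 0.108 to 0.205% in the others. In culture 4F at 0 mg/dL, the 10 largest genes took 44.7% of counts, against 35.7 to 38.9% in the others. Of 109 genes examined, 3 had every female culture on one side of 0 and every male culture on the other, and all 3 are among the 6 genes named for the smallest p of the sex term, so the pattern follows from that choice. The mean within-culture log2 difference was -0.53 in female and 0.20 in male cultures for Mir22hg, male minus female 0.72. It was -0.32 and 0.83 for Hspg2 (1.15), and 1.64 and -1.21 for Nt5c1a (-2.86). None of them passed the sex term in edgeR (adjusted p = 0.224 for each).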

How the results depend on the processing

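Of the alternatives planned, DESeq2 called 96 genes at an adjusted p under 0.05 where edgeR called 0. Criteria of the study's kind selected 1162 of 29978 genes, 450 higher and 712 lower. They were an unadjusted paired p and a mean difference divided by the standard deviation of the groups, without the study's confidence interval for the effect size. Among alternatives chosen after seeing the data, limma-voom called 7, edgeR with robust estimation 6 and counts thinned to the smallest total 2. Leaving out 1 culture or 1 pregnancy gave 0 to 1 calls: B3gnt5 without culture 3M (0.78, edgeR adjusted p = 0.0209) and Wnt4 without pregnancy 3 (1.01, edgeR adjusted p = 0.0456). Without pregnancy 4 there were 855 genes at an unadjusted p under 0.05, without pregnancy 5 there were 943, and without culture 3M there were 2358, against 1575. The reported fit keeps culture as the pairing, and with no replicate block there were 0 calls and 241 genes at an unadjusted p under 0.05. For the sex term, DESeq2 called 60 genes where edgeR called 0, and without pregnancy 3 edgeR had 826 at an unadjusted p under 0.05, against 3393.

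Of 103 genes, 97 kept their direction under every alternative that gave a value, which was 21 for 102 genes and 15 for Afp. Most of the 103 were named for a small p in the reported fit, and the alternatives reuse the same libraries. A kept direction therefore follows largely from that choice, and no share over all genes tested is given beside it. The 6 genes that turned were ethanol and aldehyde enzymes, a list named whatever the p. Leaving out 1 culture or pregnancy moved the value of 31 genes by over 1.5 times. The gene Aldh2 turned to -0.0558 under library totals and -0.0325 without pregnancy 5, the lowest value with samples left out (highest 0.130, without pregnancy 4). The gene Adh5 turned to -0.0823 under library totals, -0.059 without culture 3F, -0.0145 without culture 4M, -0.0118 without culture 5F, -0.0324 without pregnancy 4 and -0.215 in male cultures alone (highest 0.131, without culture 3M). The gene Aldh9a1 turned to -0.0159 under library totals, -0.177 with no replicate block, -0.0914 with pregnancy and sex terms, -0.693 without culture 5F, -0.949 without pregnancy 5 and -0.0459 in male cultures alone (highest 1.11, without pregnancy 3). The gene Akr1a1 turned to 0.0277 without culture 3M, 0.0178 without culture 5M, 0.0138 without pregnancy 3 and 0.0786 in female cultures alone (lowest -0.0628, without culture 5F), the gene Aldh3a2 to 0.038 in female cultures alone and the gene Aldh7a1 to 0.044 without pregnancy 3 (lowest -0.135, without pregnancy 5). Under library totals the median over all genes was -0.11, and the values of Aldh2, Adh5 and Aldh9a1 stayed above it. The cause of these changes was not tested. Genes under about 1 CPM, such as Afp and Nrgn, rest on few counts, and 6 cultures from 3 pregnancies limit what could be called.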
